A study of Homo sapiens with 9 samples.

Results

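The collagen genes were taken as every protein-coding gene of the count tables whose symbol is COL, a number, A and a number. There were 44 of them among 60683 genes, made up of 11 fibrillar collagens, 6 type IV collagens and 27 others. Collagens are matrix proteins whose chains, each made by its own gene, wind around each other into a rope-like helix inside the cell before they are secreted. Fibrillar collagens pack side by side into the strong fibrils of connective tissue, type IV collagen forms the sheet-like net of basement membranes under epithelia, and the others decorate fibrils, anchor epithelia, form fine networks or span the cell membrane. Epithelial cells are known above all for making basement membrane collagens, while stromal cells make most of the fibrillar ones.

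Messenger RNA was measured by RNA sequencing in 3 untreated libraries, 3 from cells adapted to oxaliplatin and 3 from cells adapted to sorafenib, all labelled as the human colorectal adenocarcinoma line HCT 15 of wild-type genotype. The library titles also carry the number 769, which the labels do not explain. Oxaliplatin, a platinum drug that damages DNA, was started at 0.5 µM for 7 days, was stepped up through 1 and 2 µM to 4 µM between day 10 and day 30, and was then kept at 4 µM. Sorafenib, an inhibitor of RAF and receptor tyrosine kinases, was used in a like manner at doses not given in the sources used here. The labels do not say whether an adapted line is a clone or a pool, and the untreated cells are not described as passaged alongside the drugs.

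Total counts were 15797076 to 20936536 per library. After genes with few counts were removed, 16159 were tested. Within a group the libraries varied beyond counting error (chi-square per degree of freedom 16.9 to 36.3). No label says that the 3 libraries of a group are separate cultures, so p-values reflect only how far these libraries differ, and that spread may be technical. The label did not match the marker genes: all 12 colorectal epithelial markers had a median under 1 CPM (the counts-per-million scale), and CDX1, CDX2, CDH1, KRT20, PHGR1, CEACAM5 and MUC2 were at 0 counts in every library. Summed, these 12 markers stood at 1.64 to 8.65 CPM in untreated, 0.608 to 1.14 in oxaliplatin and 0.681 to 1.41 in sorafenib libraries. Of 12 renal epithelial markers, 8 had a median of at least 10 CPM, and their sums were 612 to 927 CPM in untreated, 949 to 988 in oxaliplatin and 891 to 1106 in sorafenib libraries. The cells are therefore called here by their drug group and not by a tissue.

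Collagen mRNA in these cells was mostly basement membrane collagen. On a scale that corrects for length (transcripts-per-million, TPM), COL4A2 had the highest median over the 9 libraries, 200.0, followed by COL18A1 at 191, COL4A1 at 91.6, COL6A2 at 59.2, COL7A1 at 55.1 and COL6A1 at 33.2. These 6 genes made up 94.4 to 97.5% of the summed collagen TPM in every library. The next were COL27A1 at 13.6, COL1A1 at 3.84, COL4A5 at 1.77 and COL5A2 at 0.933 TPM, and no other collagen had a median above 0.25. The order of the first pair depended on the group. COL4A2 stood above COL18A1 in each untreated library (200.0, 218 and 198 against 191, 146 and 128 TPM) and each oxaliplatin library (221, 270 and 416 against 202, 180 and 298). In the sorafenib libraries COL18A1 stood above COL4A2 (211, 203 and 180 against 112, 143 and 138). Over all libraries COL6A2 and COL7A1 overlapped, at 48.9 to 83.4 and 33.7 to 106 TPM.

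Many collagens that stromal cells make were nearly or wholly absent. Of the 44 genes, 16 passed the filter on low counts, namely 5 of 11 fibrillar, 4 of 6 type IV and 7 of 27 others. Of the 28 that did not, 8 had no count in any of the 9 libraries: COL2A1 and COL3A1, the main collagens of cartilage and of elastic connective tissue, and COL13A1, COL21A1, COL22A1, COL23A1, COL25A1 and COL26A1. With 0 counts in all, a level of up to 0.0181 CPM (3 counts over the 9 libraries) cannot be told from absence, counting error only. The other 20 reached at most 0.596 CPM, which was COL6A3 in 1 oxaliplatin library. COL1A2, which supplies the partner chain of COL1A1 in ordinary type I collagen, had 4 counts over all libraries, and COL6A3, the large chain of type VI collagen, had 61.

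**Figure D1:**
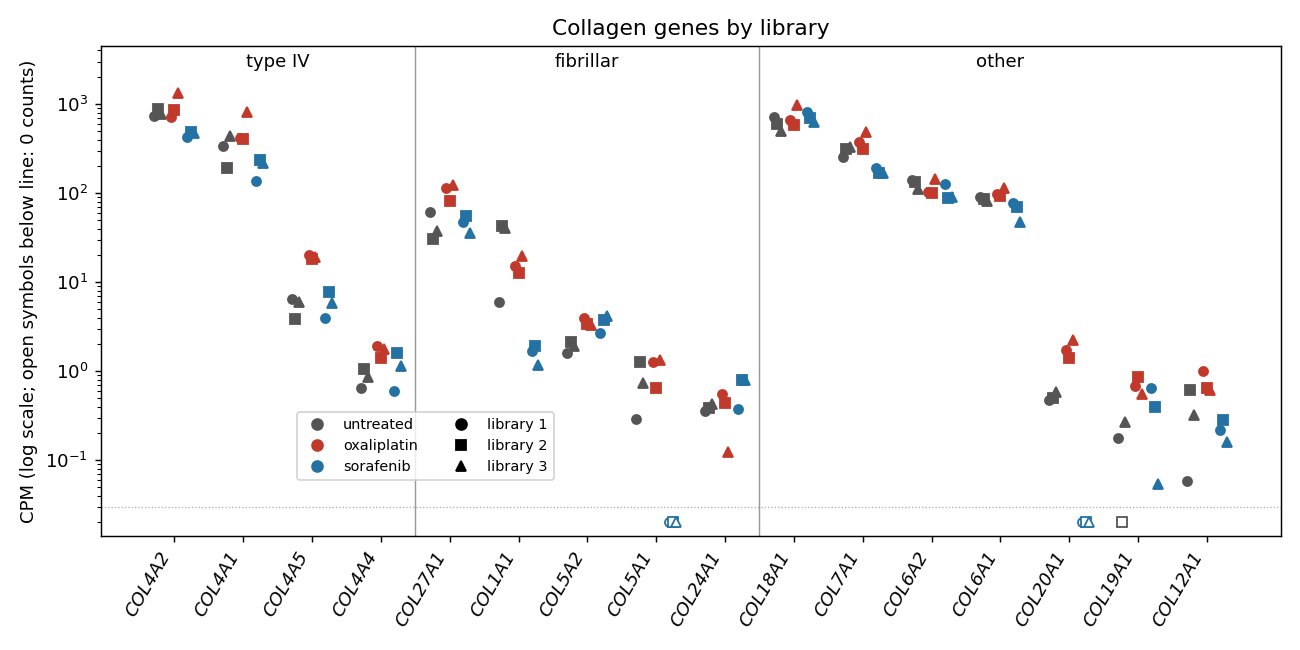
Level of each of the 16 tested collagen genes in every library, in CPM on a log scale (y axis), with genes ordered by level within type IV, fibrillar and other collagens (x axis), colour for the drug group and shape for the library number. Open symbols below the dotted line are libraries with 0 counts, which hold all 3 sorafenib libraries for COL5A1 and COL20A1 and untreated library 2 for COL19A1.

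Of the type IV genes, COL4A5 rose in oxaliplatin. Of the abundant pair COL4A1 and COL4A2, only COL4A2 stood wholly lowest in sorafenib, while COL4A1 overlapped untreated there. The type IV genes lie in head-to-head pairs, COL4A1 with COL4A2, COL4A4 with COL4A3 and COL4A6 with COL4A5. The protein net is built from set combinations of the chains. COL4A5 encodes a chain found in basement membranes of kidney and other epithelia and mutated in Alport syndrome (ENSG00000188153, chrX:108439838-108697545). It stood at 6.45, 3.81 and 5.99 CPM in untreated libraries 1 to 3, at 20.4, 18.2 and 19.0 in oxaliplatin and at 3.97, 7.78 and 5.79 in sorafenib. All 3 oxaliplatin values lay above all others, and the sorafenib and untreated ranges overlapped. The gene was 3.54-fold higher in oxaliplatin than in untreated (log2 fold change 1.82 ± 0.26, SE; adjusted p = 0.00203) and 3.29-fold higher than in sorafenib (1.72 ± 0.26, adjusted p = 0.00432). In sorafenib against untreated it was at 0.11 ± 0.26 (adjusted p = 0.836). In RNA from whole cultures, as here, fewer cells of a type and less RNA per cell cannot be told apart.

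The 250 bases before the COL4A5 start (RefSeq, GRCh38.p14, chrX:108439588-108439837, plus strand) are shown because this was the type IV gene that rose; capitals mark the letters CCAAT on either strand.
COL4A5: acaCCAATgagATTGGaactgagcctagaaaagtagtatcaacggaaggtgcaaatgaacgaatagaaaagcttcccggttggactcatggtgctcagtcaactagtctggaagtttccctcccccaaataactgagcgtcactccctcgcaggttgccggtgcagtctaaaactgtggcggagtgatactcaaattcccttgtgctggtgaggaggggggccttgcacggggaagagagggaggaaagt
They hold 2 such matches within the first bases and none to the GC box GGGCGG. Of 35116 promoter windows of this length in the table, 32.0% hold CCAAT on either strand and 42.6% GGGCGG. The start of COL4A6 lies 380 bases away on the other strand, and COL4A6 had 10 counts over all libraries, at most 0.365 CPM.

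COL4A2 encodes a chain of the most common type IV molecule (ENSG00000134871, chr13:110305812-110513209). Its levels were 732, 870 and 773 CPM in untreated, 717, 859 and 1342 in oxaliplatin and 423, 483 and 479 in sorafenib libraries. Every sorafenib value lay below every other value, and oxaliplatin library 3 stood above the rest. COL4A2 was 2.11-fold higher in oxaliplatin than in sorafenib (1.07 ± 0.20, adjusted p = 0.0119), and 1.71-fold lower in sorafenib than in untreated without passing the test (-0.78 ± 0.20, adjusted p = 0.0559). The call between the drugs ended without sorafenib library 1 (adjusted p = 0.0525; 3.81e-05 to 0.0525 over 17 alternatives), and without oxaliplatin library 3 the difference was 0.78 (adjusted p = 0.00905). Against untreated, the difference in sorafenib passed in 4 of 17 alternatives and missed in the rest (range 0.00717 to 0.181). It passed without oxaliplatin library 3 (adjusted p = 0.0130) and with only these 2 groups fitted (0.0223). It also passed with the GC and length correction (0.0196) and with DESeq2 (0.00717). The difference in oxaliplatin, 0.30 ± 0.20 (adjusted p = 0.284), was -0.001 without oxaliplatin library 3.

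COL4A1 supplies the other chain of that molecule (ENSG00000187498, chr13:110148963-110307157). It stood at 342, 193 and 435 CPM in untreated, 417, 409 and 825 in oxaliplatin and 136, 236 and 218 in sorafenib libraries. The oxaliplatin values lay above all sorafenib values, while untreated libraries overlapped both groups. It was 2.80-fold higher in oxaliplatin than in sorafenib (1.48 ± 0.39, adjusted p = 0.0481). That call was near the threshold: without each of untreated 1 and 3, oxaliplatin 1, 2 and 3 and sorafenib 1, 2 and 3 the adjusted p was 0.0642, 0.0524, 0.0822, 0.0736, 0.0862, 0.15, 0.0867 and 0.111, with no filter it was 0.142, and over 17 alternatives it ran from 0.000536 to 0.15. Without oxaliplatin library 3 the difference was 1.08. Against untreated the differences were 0.77 ± 0.38 in oxaliplatin (adjusted p = 0.158) and -0.72 ± 0.38 in sorafenib (adjusted p = 0.279).

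The whole stretch between the RefSeq starts of COL4A1 and COL4A2 (GRCh38.p14, chr13:110307158-110307283, shown on the plus strand, which reads toward COL4A2) is given because both genes start from it; capitals mark 1 CCAAT and 1 GGGCGG.
COL4A1 and COL4A2: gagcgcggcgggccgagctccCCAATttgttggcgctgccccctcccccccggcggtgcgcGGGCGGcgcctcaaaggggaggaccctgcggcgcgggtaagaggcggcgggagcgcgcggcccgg
It is 126 bases long. Although the pair shares it, the TPM ratio of COL4A2 to COL4A1 was not constant: it ran from 1.81 to 4.60 in untreated, 1.66 to 2.14 in oxaliplatin and 2.09 to 3.16 in sorafenib libraries, and untreated library 2 gave the highest value. The oxaliplatin and sorafenib ranges of this ratio overlap slightly.

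COL4A4 encodes a chain that joins COL4A3 and COL4A5 chains in the glomerular basement membrane (ENSG00000081052, chr2:227002714-227164453). It was low, at 0.645, 1.05 and 0.849 CPM in untreated, 1.93, 1.41 and 1.76 in oxaliplatin and 0.598, 1.59 and 1.13 in sorafenib libraries. The oxaliplatin values lay above the untreated ones, but the difference missed the threshold (1.00 ± 0.37, adjusted p = 0.0660), as did 0.37 ± 0.38 in sorafenib (adjusted p = 0.580) and 0.62 ± 0.36 between the drugs (adjusted p = 0.297). Without sorafenib library 1 the first of these passed (adjusted p = 0.0370; 0.0370 to 0.361 over 17 alternatives). Its partner COL4A3, whose start lies 419 bases away, had 35 counts over all libraries and was not tested. The TPM ratio of COL4A5 to COL4A4 was 16.4 to 20.0 in oxaliplatin, above the 5.61 to 15.5 of untreated and the 7.56 to 10.3 of sorafenib libraries.

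**Figure D2:**
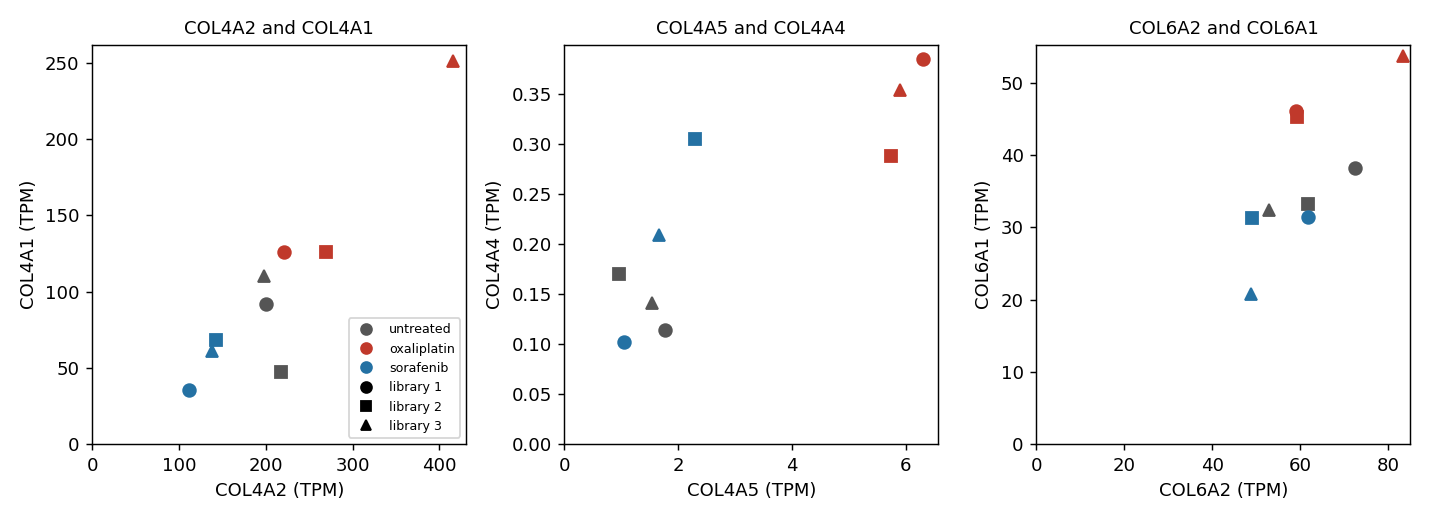
TPM of partner chains in each library: COL4A1 against COL4A2, COL4A4 against COL4A5 and COL6A1 against COL6A2, with colour for the drug group and shape for the library number. For COL4A5 the 3 oxaliplatin libraries lie to the right of all others, and for COL4A1 and COL4A2 oxaliplatin library 3 stands apart at the upper right.

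Among fibrillar collagens, COL27A1 and COL5A2 rose in oxaliplatin, COL1A1 fell steeply in sorafenib, and COL5A1 was without a count there. COL27A1, a fibrillar collagen best known from cartilage (ENSG00000196739, chr9:114155537-114312511), had the highest median TPM of them over all libraries, although in untreated libraries 2 and 3 COL1A1 was higher (10.4 and 10.0 TPM against 6.32 and 8.03). It stood at 61.9, 30.3 and 37.6 CPM in untreated, 115, 80.6 and 122 in oxaliplatin and 47.2, 55.1 and 35.8 in sorafenib libraries. The oxaliplatin group did not overlap either of the other groups, which overlapped each other. COL27A1 was 2.45-fold higher in oxaliplatin than in untreated (1.29 ± 0.28, adjusted p = 0.00958) and 2.30-fold higher than in sorafenib (1.20 ± 0.28, adjusted p = 0.0284). The second call ended without oxaliplatin 1 or 3 (adjusted p = 0.0942 and 0.0647) and without sorafenib 1, 2 or 3 (0.0974, 0.0504 and 0.0918) and with no filter (0.0555), in a range of 0.000468 to 0.0974 over 17 alternatives. Sorafenib against untreated gave 0.09 ± 0.28 (adjusted p = 0.874).

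Among cartilage marker genes SOX9 and SOX6 moved with COL27A1, and their part in the result was not tested. Of 6 such markers 4 had a median under 1 CPM, and ACAN, SOX5 and COMP, among them the defining aggrecan gene, were at 0 in every library. Their sum was 12.5 to 18.1 CPM in untreated, 33.4 to 41.5 in oxaliplatin and 13.9 to 15.6 in sorafenib libraries. SOX9, a transcription factor of cartilage and of several epithelia, made up much of it. SOX9 was at 5.83 to 9.03 CPM in untreated, 21.9 to 23.0 in oxaliplatin and 6.74 to 9.43 in sorafenib. SOX6 was at 4.48 to 9.03, 11.5 to 18.4 and 6.06 to 6.63 CPM in the same groups. MATN3 did not rise in oxaliplatin (0 to 0.138 CPM, against 0 to 0.371 in untreated).

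The 250 bases before the RefSeq start of COL27A1 (GRCh38.p14, chr9:114155287-114155536, plus strand) are shown for this fibrillar member that rose in oxaliplatin; capitals mark GGGCGG.
COL27A1: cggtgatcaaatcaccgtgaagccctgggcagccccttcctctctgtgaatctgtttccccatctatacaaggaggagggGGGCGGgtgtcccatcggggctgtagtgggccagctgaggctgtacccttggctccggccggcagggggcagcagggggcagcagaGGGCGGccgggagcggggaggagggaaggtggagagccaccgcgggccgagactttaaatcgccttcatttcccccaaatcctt
There are 2 matches to GGGCGG or its complement CCGCCC and none to CCAAT.

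COL1A1 encodes the main chain of type I collagen (ENSG00000108821, chr17:50184101-50201632). Its levels were 6.04, 43.0 and 40.5 CPM in untreated, 15.2, 12.6 and 19.8 in oxaliplatin and 1.68, 1.93 and 1.18 in sorafenib libraries. Each sorafenib value was below every other value, and untreated library 1 was far below the other 2 untreated libraries. COL1A1 was 18.7-fold lower in sorafenib than in untreated (-4.22 ± 0.71, adjusted p = 0.0235) and 9.91-fold higher in oxaliplatin than in sorafenib (3.31 ± 0.70, adjusted p = 0.0249). The first call ended without untreated 2 or 3 (adjusted p = 0.0792 and 0.0704) or sorafenib 2 or 3 (0.0982 and 0.111), with no filter (0.0556) and with only these 2 groups fitted (0.0607), in a range of 1.43e-07 to 0.111 over 17 alternatives. The second ended without oxaliplatin 1, 2 or 3 (0.0733, 0.0594 and 0.0505) or sorafenib 1, 2 or 3 (0.0908, 0.0696 and 0.0908) and with no filter (0.0789), in a range of 6.04e-05 to 0.0908. Both differences stayed above 3 on the log2 scale in size in every alternative. Oxaliplatin against untreated gave -0.91 ± 0.60 (adjusted p = 0.277), and without untreated library 1 it gave -1.40 and passed (adjusted p = 0.00276; range 0.00276 to 0.593).

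COL5A1 and COL5A2 encode the chains of type V collagen, which starts and limits the growth of type I fibrils, and they went different ways in sorafenib. COL5A1 (ENSG00000130635, chr9:134641803-134844843) was at 0.293, 1.27 and 0.743 CPM in untreated, 1.28, 0.651 and 1.34 in oxaliplatin and 0, 0 and 0 in sorafenib libraries. That is 42 counts in untreated and 62 in oxaliplatin against none in sorafenib. Taking 3 counts over the sorafenib group as the floor, COL5A1 was at least 14.2-fold lower there than in pooled untreated libraries (adjusted p = 0.0272). Against pooled oxaliplatin libraries it was at least 19.9-fold lower (adjusted p = 0.00931). These bounds allow for counting error in sorafenib only, and not for the spread of the other libraries. The call against untreated ended without untreated 2 or 3 (0.0791 and 0.0756) or sorafenib 2 or 3 (0.0799 and 0.0851), in a range of 0.000266 to 0.0851 over the 15 alternatives in which it was fitted. Oxaliplatin against untreated gave 0.49 ± 0.54 (adjusted p = 0.522).

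COL5A2 (ENSG00000204262, chr2:189031898-189225312) was at 1.58, 2.10 and 1.91 CPM in untreated, 3.99, 3.42 and 3.28 in oxaliplatin and 2.66, 3.75 and 4.13 in sorafenib libraries. Both drug groups lay wholly above untreated and overlapped each other. The gene rose 1.91-fold in oxaliplatin (0.93 ± 0.23, adjusted p = 0.0151), a call that ended without oxaliplatin library 1 (adjusted p = 0.0606) and when GC content and length were corrected for (0.113, the highest of 17 alternatives, the lowest being 0.00970). In sorafenib it was at 0.91 ± 0.23 (adjusted p = 0.0537), which passed without sorafenib library 1 (adjusted p = 0.0257; range 0.0257 to 0.187). Between the drugs the difference was 0.02 ± 0.22 (adjusted p = 0.960). COL24A1, a minor fibrillar collagen of bone and cornea (ENSG00000171502, chr1:85729233-86156943), stayed at 0.122 to 0.804 CPM in all 9 libraries, with overlapping groups and adjusted p-values of 0.970, 0.391 and 0.352 in the 3 comparisons.

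The 250 bases before the RefSeq start of COL5A1 (GRCh38.p14, chr9:134641553-134641802, plus strand) are shown because its transcript had no count in sorafenib; capitals mark CCGCCC, the complement of the GC box.
COL5A1: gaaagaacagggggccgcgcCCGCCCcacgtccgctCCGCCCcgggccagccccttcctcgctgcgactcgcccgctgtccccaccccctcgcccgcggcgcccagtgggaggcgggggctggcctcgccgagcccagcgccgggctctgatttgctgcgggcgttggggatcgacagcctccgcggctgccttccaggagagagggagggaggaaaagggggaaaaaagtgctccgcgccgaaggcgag
There are 2 matches, and 74.0% of the bases are G or C, against a median of 58.0% over all windows in the table.

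Of the remaining collagens, COL20A1 rose in oxaliplatin and was without a count in sorafenib, and COL7A1 was lowest in sorafenib. COL20A1, a fibril-associated collagen (ENSG00000101203, chr20:63293186-63334851), stood at 0.469, 0.498 and 0.583 CPM in untreated, 1.74, 1.41 and 2.25 in oxaliplatin and 0, 0 and 0 in sorafenib libraries. The 3 groups were fully separated in the order oxaliplatin, untreated, sorafenib. COL20A1 was 3.44-fold higher in oxaliplatin than in untreated (1.78 ± 0.35, adjusted p = 0.00843). The gene had 28 counts in untreated, 101 in oxaliplatin and none in sorafenib. In sorafenib it was at least 9.45-fold lower than in pooled untreated libraries (adjusted p = 0.00999). Against pooled oxaliplatin libraries it was at least 32.5-fold lower (adjusted p = 0.000666). These bounds, too, allow for counting error in sorafenib only. These 3 calls held in each alternative in which the gene was fitted, with adjusted p-values up to 0.0362, 0.0414 and 0.00556. It was fitted in 16, 15 and 16 of the 17 alternatives, and the rest do not bear on these calls. Its counts were highest in oxaliplatin, and a gene that passes the filter only through a high group has to differ.

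COL7A1 makes the anchoring fibrils that fasten basement membranes to the stroma (ENSG00000114270, chr3:48564073-48595267). Its levels were 256, 315 and 330 CPM in untreated, 374, 309 and 491 in oxaliplatin and 190, 170 and 168 in sorafenib libraries. All sorafenib values lay below all others, and the untreated and oxaliplatin ranges overlapped. COL7A1 was 2.22-fold higher in oxaliplatin than in sorafenib (1.15 ± 0.17, adjusted p = 0.00391), a call that held in all 17 alternatives with an adjusted p of at most 0.0210. It was 1.70-fold lower in sorafenib than in untreated (-0.77 ± 0.17, adjusted p = 0.0354). That call ended without untreated 2 or 3 (adjusted p = 0.120 and 0.117), oxaliplatin 1 (0.0593) or sorafenib 2 or 3 (0.137 and 0.133), in a range of 0.00148 to 0.137. Oxaliplatin against untreated gave 0.38 ± 0.17 (adjusted p = 0.105), which passed without oxaliplatin library 2 (adjusted p = 0.0455; range 0.0365 to 0.732).

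The 250 bases before the RefSeq start of COL7A1 (GRCh38.p14, chr3:48595330-48595579, minus strand) are shown for the abundant member that fell in sorafenib; capitals mark the GC box in either direction and the TATA letters TTTATA, the complement of TATAAA.
COL7A1: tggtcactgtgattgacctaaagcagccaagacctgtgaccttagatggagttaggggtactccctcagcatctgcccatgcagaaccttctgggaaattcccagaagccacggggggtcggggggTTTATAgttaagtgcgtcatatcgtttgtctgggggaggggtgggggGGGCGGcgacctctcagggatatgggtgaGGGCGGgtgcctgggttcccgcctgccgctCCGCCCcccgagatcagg
They hold 3 GC box matches and 1 TATA match, which 10.7% of all windows have.

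Type VI collagen forms beaded filaments around cells, and 1 of its 2 tested genes was called, in 1 comparison. COL6A1 (ENSG00000142156, chr21:45981769-46005050) was at 91.2, 86.6 and 82.5 CPM in untreated, 97.3, 93.7 and 113 in oxaliplatin and 77.6, 69.1 and 47.3 in sorafenib libraries, so that the 3 groups did not overlap. It was 1.57-fold higher in oxaliplatin than in sorafenib (0.65 ± 0.17, adjusted p = 0.0388). This call ended without untreated 2 or 3 (adjusted p = 0.0537 and 0.0583), oxaliplatin 1, 2 or 3 (0.0957, 0.0784 and 0.0824) or sorafenib 2 or 3 (0.0729 and 0.0780) and with only these 2 groups fitted (0.0603), in a range of 0.00821 to 0.0957 over 17 alternatives. Against untreated it was at 0.22 ± 0.17 in oxaliplatin (adjusted p = 0.335) and -0.42 ± 0.17 in sorafenib (adjusted p = 0.153). COL6A2 (ENSG00000142173, chr21:46098112-46132848), at 141, 132 and 110 CPM in untreated, 102, 100 and 143 in oxaliplatin and 125, 88.5 and 90.9 in sorafenib libraries, overlapped between all groups and had adjusted p-values of 0.564, 0.286 and 0.554.

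COL18A1 encodes a basement membrane collagen whose end fragment, endostatin, can be cut off and inhibits vessel growth (ENSG00000182871, chr21:45405165-45513720). It was at 711, 593 and 504 CPM in untreated, 663, 579 and 974 in oxaliplatin and 808, 698 and 637 in sorafenib libraries, with overlapping groups and adjusted p-values of 0.288, 0.476 and 0.900. Its exons share 1401 bases, 16.43% of their length, with SLC19A1 on the opposite strand. The strand setting is not given in the sources used here, so some of its counts may belong to that gene, which had 10392 counts over all libraries against 112560 for COL18A1. In sorafenib COL18A1 made up 36.4 to 42.1% of the summed collagen TPM, against 21.2 to 29% in untreated and 23.0 to 25.9% in oxaliplatin.

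The last pair were scarce fibril-associated collagens. COL12A1 (ENSG00000111799, chr6:75084326-75206053) had 74 counts in all and ranged over 0.0587 to 0.608 CPM in untreated, 0.608 to 1.01 in oxaliplatin and 0.161 to 0.284 in sorafenib libraries. The drug groups did not overlap, but the difference between them missed the threshold (1.76 ± 0.62, adjusted p = 0.0970) and passed without untreated library 1 (adjusted p = 0.0455; range 0.0438 to 0.287 over 16 alternatives). COL19A1 (ENSG00000082293, chr6:69866556-70212468) had 68 counts and was at 0.176, 0 and 0.265 CPM in untreated, 0.688, 0.868 and 0.547 in oxaliplatin and 0.652, 0.397 and 0.0536 in sorafenib. Oxaliplatin lay above untreated (2.20 ± 0.83, adjusted p = 0.0678), and the difference passed without sorafenib library 3 (adjusted p = 0.0467; range 0.0467 to 0.170). It shares 70 exon bases with LMBRD1 on the opposite strand, a gene with 6603 counts, so these few counts are uncertain.

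Counted together, the collagens rose or did not pass in oxaliplatin, fell or did not pass in sorafenib, and had their largest number of calls between the drugs. In oxaliplatin against untreated, 4 of the 16 tested members (25.0%) were higher and 0 lower, where 16.2% of all tested genes were called higher and 15.5% lower. The groups did not overlap for 7 members (43.8%), against 48.1% of all tested genes, and the median log2 fold change was 0.63 against 0.02 for all. The share of higher calls is thus not far from the background, and the share of separated groups is below it. In sorafenib against untreated, 0 were higher and 4 lower (25.0%), where 2.82% of all tested genes were called higher and 1.97% lower. Here 7 members (43.8%) did not overlap, against 29.8% of all, and the median was -0.38 against 0.00.

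In oxaliplatin against sorafenib, 9 members (56.2%) were higher and 0 lower, where 5.20% of all tested genes were called higher and 5.07% lower. The groups did not overlap for 10 members (62.5%), against 34.9% of all, and the median was 1.11 against -0.01. The 9 were COL4A1, COL4A2, COL4A5, COL1A1, COL5A1, COL27A1, COL6A1, COL7A1 and COL20A1, which is 3 of 4 tested type IV, 3 of 5 fibrillar and 3 of 7 other collagens. Leaving out single libraries took the counts to 3 to 5 higher in oxaliplatin against untreated, 1 to 5 lower in sorafenib against untreated and 5 to 9 higher between the drugs. The count between the drugs was 5 without oxaliplatin 1 or 3 and without sorafenib 1, 2 or 3, and that in sorafenib against untreated was 1 without untreated 2 or 3 and without sorafenib 2 or 3. Members that passed the filter only because 1 group is high had to differ, so these counts describe the 16 and not all 44. With no filter, 36 members could be fitted and none of the 20 added ones was called, with lowest adjusted p-values of 0.198, 0.134 and 0.389. The 3 comparisons share libraries in pairs and are not independent.

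**Figure D3:**
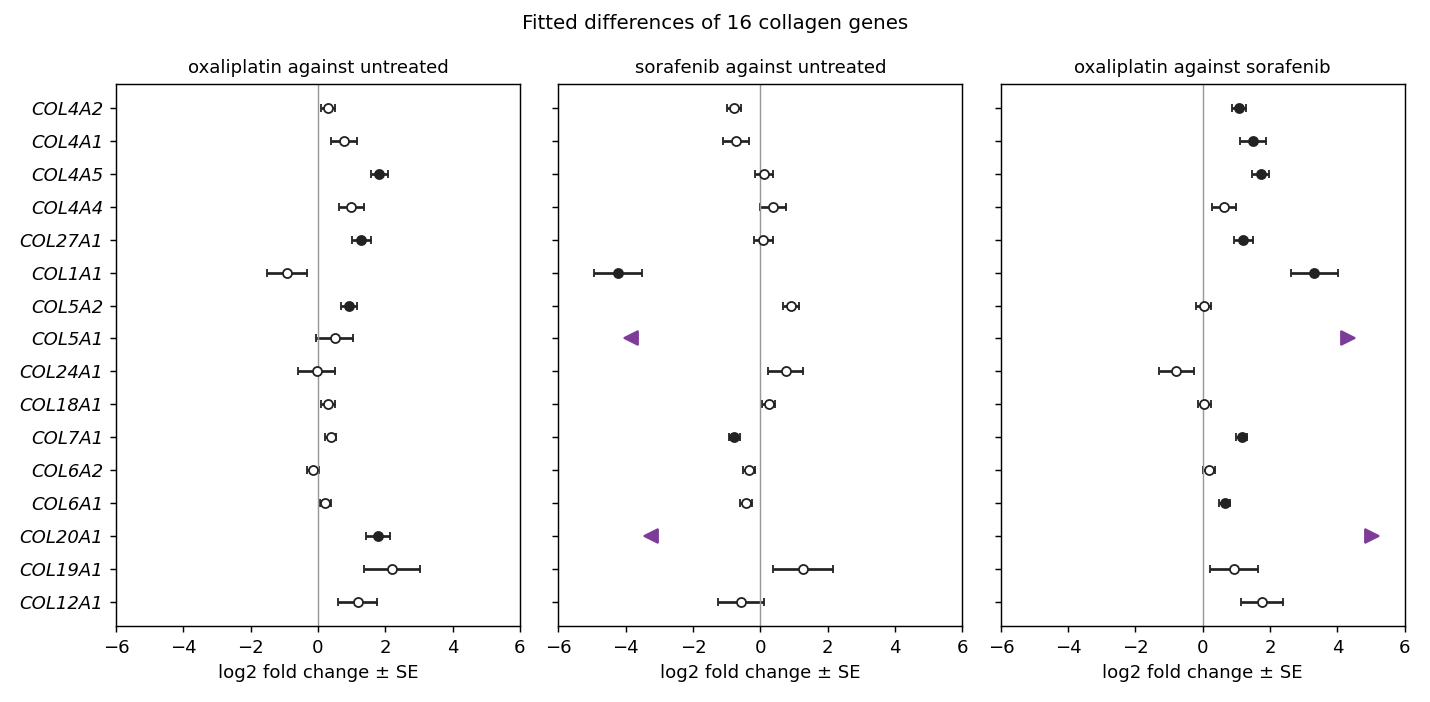
Log2 fold change with its SE (x axis) for the 16 tested collagens (y axis) in the 3 comparisons (panels), filled where the adjusted p is under 0.05. Triangles stand at the bound of the difference for COL5A1 and COL20A1, which had 0 counts in sorafenib. That bound allows for counting error in sorafenib only. In the right panel no called point lies below 0.

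Summed over genes, fibrillar collagens separated all 3 groups on both scales, and type IV collagens set sorafenib apart from the other 2 groups. These sums were not tested, and few genes carried them. The fibrillar sum was mostly COL27A1 and COL1A1. Their log2 fold changes against untreated were 1.29 and -0.91 (the second not called) in oxaliplatin, and 0.09 (not called) and -4.22 in sorafenib. The type IV sum was mostly COL4A2 and COL4A1, neither called in sorafenib against untreated (adjusted p = 0.0559 and 0.279). Type IV TPM summed to 294, 266 and 310 in untreated, 354, 403 and 674 in oxaliplatin and 148, 214 and 201 in sorafenib libraries, so that the 3 groups were fully ordered in TPM. On the CPM scale used for the tests, type IV sums were 1081, 1068 and 1215 in untreated, 1157, 1287 and 2189 in oxaliplatin and 564, 729 and 705 in sorafenib libraries, where untreated and oxaliplatin overlapped. Fibrillar TPM summed to 16.3, 17.5 and 18.9 in untreated, 35.7, 26.3 and 38.9 in oxaliplatin and 11.6, 15.4 and 10.2 in sorafenib libraries, in the same order as in CPM (70.5 to 81.5, 97.8 to 147 and 42.1 to 61.8). The other collagens summed to 351, 297 and 273 in untreated, 389, 353 and 543 in oxaliplatin and 340, 320 and 284 TPM in sorafenib libraries, where sorafenib and untreated overlapped, and in CPM all 3 groups overlapped (1029 to 1200, 1085 to 1726 and 944 to 1203). Collagens took 0.214 to 0.234% of all counts in untreated, 0.264, 0.259 and 0.423% in oxaliplatin and 0.167 to 0.183% in sorafenib libraries. Oxaliplatin library 3 was the highest for the sums of all 3 classes on both scales.

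**Figure D4:**
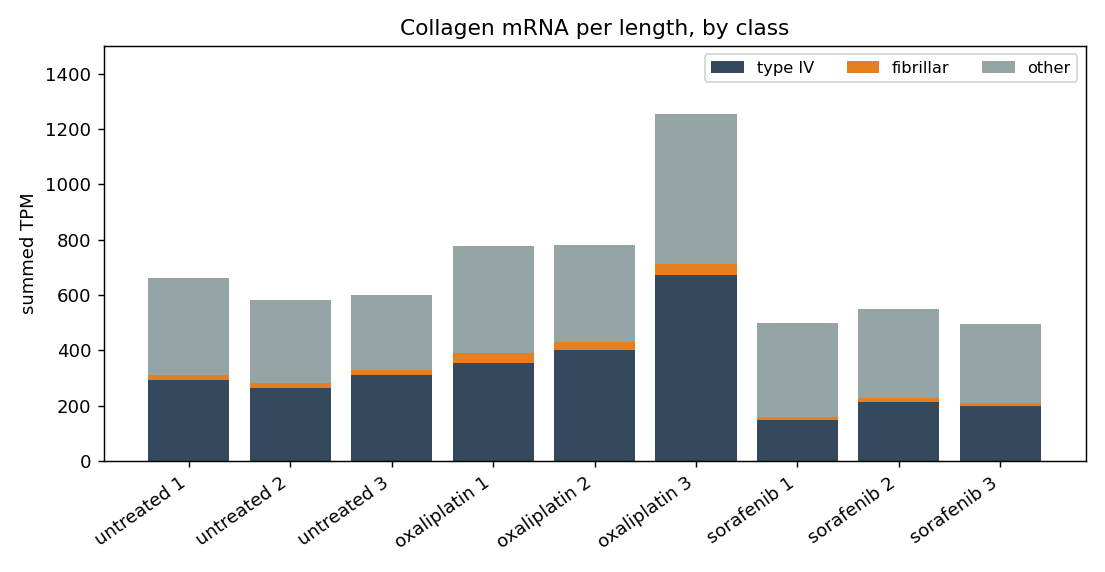
Summed TPM of type IV, fibrillar and other collagens in each of the 9 libraries, as stacked bars from 0. The total runs from 581 to 661 in untreated, 779 to 1255 in oxaliplatin and 495 to 549 in sorafenib libraries.

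Markers of other cell types were measured in the same libraries, and their part in the results was not tested. Of 12 markers of fibroblasts and other stromal cells 10 had a median under 1 CPM, and LUM, TWIST1, PRRX1 and PDPN were at 0 in every library. The 2 others were FBLN1, at 321 to 446 CPM in untreated, 265 to 308 in oxaliplatin and 234 to 254 in sorafenib, and PDGFRB, at 5.22 to 6.90, 3.76 to 4.92 and 2.44 to 2.68 CPM. The 12 markers summed to 326 to 452 CPM in untreated, 269 to 313 in oxaliplatin and 237 to 257 in sorafenib libraries. Nearly all of this sum was FBLN1. FBLN1 and PDGFRB were lowest in sorafenib, where COL1A1 and COL5A1 were lowest. All 8 endothelial markers had a median under 1 CPM, with CDH5, VWF, KDR and EMCN at 0, and their sums stayed under 1 CPM in every library. Of 6 markers of smooth muscle and pericytes 5 had a median under 1 CPM, none was at 0 in every library, and their sum was 6.58 to 8.27 CPM in untreated, 8.75 to 9.93 in oxaliplatin and 8.15 to 9.06 in sorafenib. Oxaliplatin thus lay above untreated without overlap, as it did for the renal markers given above. RGS5 made up most of that sum, at 5.69 to 8.17, 6.99 to 8.84 and 7.61 to 8.57 CPM, while CNN1 was at 0 to 0.829, 0.413 to 1.34 and 0 to 0.109.

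The promoter windows of the tested members were not alike. An entry was found for 12 of the 16, and COL1A1, COL20A1, COL5A2 and COL6A1 had none. Their share of G and C ran from 48.4% in COL19A1 to 88.4% in COL18A1, around a median of 58.0% over all windows. GGGCGG or its complement occurred in 8 of the 12, CCAAT or its complement in 3, TATAAA or its complement in 2, and the AP-1 letters TGACTCA or TGAGTCA in none, against 42.6, 32.0, 10.7 and 4.2% of all windows. The windows of COL4A1 and COL4A2 share the 126 bases between their starts, so the 1 CCAAT and 1 GGGCGG there count for both genes. COL4A5 and COL27A1, which both rose in oxaliplatin, had no motif of these in common.

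Collagen chains need helpers before and after secretion and receptors to act on the cell, and 8 lists of such genes can be read against the shares of all tested genes given above. Genes named below beyond the rule in the methods were chosen after their values were seen, because the counts are small. Of 12 tested genes of 15 for hydroxylation and glycosylation of collagen, 2 rose and 2 fell in oxaliplatin (median log2 fold change 0.11, all genes 0.02), 0 rose and 2 fell in sorafenib (-0.19), and 1 was higher and 1 lower in oxaliplatin than in sorafenib (0.19). P3H2, a prolyl 3-hydroxylase that acts on type IV collagen (ENSG00000090530), was at 16.7, 25.3 and 23.2 CPM in untreated, 70.0, 64.6 and 62.0 in oxaliplatin and 13.2, 10.8 and 12.4 in sorafenib libraries. Its 3 groups were fully separated in the same order as summed type IV TPM. In CPM, however, the type IV sums of untreated and oxaliplatin libraries overlapped (1068 to 1215 and 1157 to 2189). P3H2 rose in oxaliplatin (1.59 ± 0.16, adjusted p = 0.000822) and was higher there than in sorafenib (2.43 ± 0.17, adjusted p = 8.24e-05). Both calls held in all 17 alternatives.

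Against untreated P3H2 fell in sorafenib (-0.84 ± 0.16, adjusted p = 0.0243), but without untreated 2 or 3 or sorafenib 2 or 3 the adjusted p was 0.0947, 0.0851, 0.104 and 0.0939, and with only these 2 groups fitted 0.0671 (0.000537 to 0.104 over 17 alternatives). P4HB, the shared subunit of the prolyl 4-hydroxylases, fell in oxaliplatin (-0.62 ± 0.13, adjusted p = 0.00716). The catalytic subunit genes P4HA1 and P4HA2 were at 0.21 ± 0.18 and 0.05 ± 0.11 (adjusted p = 0.410 and 0.750). PLOD2, a lysyl hydroxylase for collagen ends, rose in oxaliplatin (0.76 ± 0.20, adjusted p = 0.0174), a call that ended without untreated 2 or 3 (0.0502 and 0.0520) and with the GC and length correction (0.0687; range 0.00475 to 0.0687). PLOD1, a lysyl hydroxylase for the helix, fell in oxaliplatin by 0.44 and in sorafenib by 0.51 on the log2 scale (adjusted p = 0.0216 and 0.0427); the first call ended without untreated 2 or 3 or oxaliplatin 1 or 2, and the second without those 2 untreated libraries, oxaliplatin 1 or 2 or sorafenib 2 or 3 (highest adjusted p 0.0875 and 0.171).

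All 16 genes for folding and export of procollagen were tested. In oxaliplatin 5 rose and 4 fell (median 0.19). None was called in sorafenib (0.12), and 2 were lower in oxaliplatin than in sorafenib (0.06). All 5 rises lost their call with the GC and length correction (adjusted p from 0.064 for SEC31A to 0.615 for FKBP14). Of the 4 falls, PPIB and SEC13 held in all 17 alternatives, KDELR2 in 5 of 17 and CREB3L1 in 12 of 16. SERPINH1, the collagen-specific chaperone HSP47, was at 93.4, 89.6 and 80.3 CPM in untreated, 71.2, 52.8 and 92.8 in oxaliplatin and 71.5, 57.3 and 53.6 in sorafenib, and passed in no comparison (adjusted p = 0.289, 0.126 and 0.437). PPIB, a prolyl isomerase that works on collagen, fell from 259, 284 and 258 CPM in untreated to 144, 114 and 192 in oxaliplatin (-0.83 ± 0.20, adjusted p = 0.0125). SEC13, a coat protein of export vesicles, fell as well (-0.78 ± 0.13, adjusted p = 0.00321), while SEC23A, another coat protein, rose (0.50, adjusted p = 0.0102), a call that ended with the GC and length correction (adjusted p = 0.0916; range 0.00151 to 0.0916).

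Of 7 tested genes of 11 that trim the ends of procollagen, 3 rose and 0 fell in oxaliplatin (median 0.62), 0 rose and 1 fell in sorafenib (0.03), and 4 were higher in oxaliplatin than in sorafenib (0.86). ADAMTS3, a procollagen N-proteinase (ENSG00000156140), was at 3.93, 3.32 and 4.19 CPM in untreated, 8.43, 8.08 and 7.17 in oxaliplatin and 4.24, 3.69 and 5.09 in sorafenib libraries (oxaliplatin against untreated 1.05 ± 0.19, adjusted p = 0.00418). The other 2 that rose were TLL1 and TLL2, relatives of the C-proteinase BMP1. TLL1 stood at 0.469, 0.553 and 0.477 CPM in untreated, 4.45, 3.53 and 3.47 in oxaliplatin and 0.598, 0.568 and 0.214 in sorafenib (adjusted p = 0.00118 against untreated). BMP1 itself was at -0.34 ± 0.14 in oxaliplatin (adjusted p = 0.0911) and fell in sorafenib (-0.79 ± 0.14, adjusted p = 0.0192), a call that ended without untreated 2 or 3 or sorafenib 2 or 3 (0.0792, 0.0672, 0.0885 and 0.0863; range 8.6e-05 to 0.0885).

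Of 4 tested cross-linking genes of 7, none was called in oxaliplatin (median 0.11) and 1 rose in sorafenib (-0.02), where it was also higher than in oxaliplatin. This was TGM2, a transglutaminase that joins matrix proteins, with 166, 231 and 232 CPM in untreated, 244, 228 and 254 in oxaliplatin and 515, 489 and 480 in sorafenib libraries (sorafenib against untreated 1.24 ± 0.14, adjusted p = 0.00191). Its call held in all 17 alternatives. The lysyl oxidase genes LOX and LOXL2 were at 0.02 and 0.33 in oxaliplatin (adjusted p = 0.974 and 0.0521) and -0.40 and 0.37 in sorafenib (0.418 and 0.0853). PXDN, whose product cross-links type IV collagen, reached at most 0.0530 CPM and was not tested.

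Among 13 tested genes of 21 for collagen breakdown, 2 rose and 2 fell in oxaliplatin (median -0.23), 0 rose and 1 fell in sorafenib (-0.19), and 3 were higher and 1 lower in oxaliplatin than in sorafenib (0.27). TIMP1, a metalloproteinase inhibitor, fell in oxaliplatin from 98.5, 121 and 101 CPM to 64.7, 61.6 and 62.0 (-0.77 ± 0.12, adjusted p = 0.00312). MRC2, an uptake receptor for collagen fragments, rose from 266, 212 and 194 to 331, 308 and 403 CPM (0.63 ± 0.15, adjusted p = 0.0107), and the protease gene CTSL fell by 0.53 on the log2 scale (adjusted p = 0.0153), a call that ended without untreated 2 or oxaliplatin 1 (0.0521 and 0.0588; range 0.00287 to 0.0588). MMP14, the membrane-bound collagenase, was at -0.23 ± 0.13 and -0.19 ± 0.13 in the 2 drugs (adjusted p = 0.194 and 0.387). The gene that fell in sorafenib was TIMP3, a matrix-bound inhibitor, with 0.645, 3.43 and 2.71 CPM in untreated, 1.15, 1.30 and 0.851 in oxaliplatin and no count in sorafenib libraries, as for COL5A1 and COL20A1. Its adjusted p was 0.0133, and it was 0.0507 without sorafenib library 3 and 0.0671 with only these 2 groups fitted (range 6.94e-07 to 0.0671).

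Of 7 tested collagen receptor genes of 13, MRC2 among them again, 4 rose and 0 fell in oxaliplatin (median 0.63), 1 rose and 0 fell in sorafenib (0.45), and 1 was higher in oxaliplatin than in sorafenib (0.44). ITGA1, the integrin chain that prefers type IV collagen (ENSG00000213949), was at 2.41, 3.32 and 3.87 CPM in untreated, 13.7, 16.1 and 12.5 in oxaliplatin and 2.88, 3.97 and 3.22 in sorafenib libraries. It was higher in oxaliplatin than in untreated (2.14 ± 0.22, adjusted p = 0.000833) and than in sorafenib (2.07 ± 0.22, adjusted p = 0.000627), in all 17 alternatives. ADGRG6, an adhesion receptor that binds type IV collagen, rose from 149, 116 and 127 to 253, 264 and 211 CPM in oxaliplatin (0.89 ± 0.15, adjusted p = 0.00331). The partner chain ITGB1 rose in both drugs, by 0.52 in oxaliplatin (adjusted p = 0.0121), a call that ended with the GC and length correction (0.0743), and by 0.53 in sorafenib (adjusted p = 0.0410), a call that ended in 10 of 17 alternatives, among them the omission of untreated 1, 2 or 3, oxaliplatin 1 or 2 or sorafenib 2 or 3 (up to 0.159). ITGA2, which prefers fibrillar collagen, was at 1.06 ± 0.50 in oxaliplatin (adjusted p = 0.140), and DDR1 reached at most 0.227 CPM and was not tested.

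In TGF-beta signalling, the best known inducer of collagen genes, 4 of 18 tested genes of 19 rose and 2 fell in oxaliplatin (median -0.03), 2 rose and 1 fell in sorafenib (-0.07), and 2 were higher and 2 lower in oxaliplatin than in sorafenib (0.09). A pair of textbook targets went apart in oxaliplatin. CCN2, the connective tissue growth factor gene, fell from 11.6, 15.0 and 18.7 to 3.44, 4.39 and 5.71 CPM (-1.75 ± 0.23, adjusted p = 0.00166). TGFBI encodes a secreted collagen-binding protein. It was at 821, 959 and 1068 CPM in untreated, 1345, 1663 and 1135 in oxaliplatin and 480, 461 and 526 in sorafenib. Its groups were fully separated in the same order as summed fibrillar TPM and CPM. Summed type IV collagens had this order in TPM, but in CPM untreated and oxaliplatin libraries overlapped. TGFBI was higher in oxaliplatin than in sorafenib in all 17 alternatives (1.497 ± 0.156, adjusted p = 0.000605). The rise against untreated (0.54 ± 0.15, adjusted p = 0.0245) ended without untreated 1 or 2 or oxaliplatin 1 or 2 (0.0648, 0.0676, 0.0615 and 0.0913; range 0.00980 to 0.0913), and the fall in sorafenib (-0.96 ± 0.15, adjusted p = 0.0123) without untreated 3 or sorafenib 2 or 3 (0.0530, 0.0639 and 0.0507; range 1.06e-05 to 0.0639). The receptor gene TGFBR2 and SKI, a repressor of the pathway, rose in oxaliplatin (0.70 ± 0.13 and 0.71 ± 0.13, adjusted p = 0.00465 and 0.00497). Beside CCN2, the other gene that fell in oxaliplatin was the ligand gene TGFB1. It was called in all 17 alternatives (log2 fold change -0.905 to -0.608, adjusted p up to 0.039).

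SMAD3, a transcription factor of the pathway, rose in both drugs, by 0.52 in oxaliplatin and by 0.54 in sorafenib (adjusted p = 0.0119 and 0.0397). The first call ended without untreated 2 or 3 and with the GC and length correction (up to 0.133). The second ended without untreated 2 or 3, oxaliplatin 1 or 2 or sorafenib 2 or 3 (up to 0.157). TGFBR3 was the other gene of this list called higher in sorafenib than in untreated (log2 fold change 1.249 to 1.595 over 17 alternatives). That call held in 11 of the 17 (adjusted p up to 0.119). Of 7 tested partners of collagen in basement membranes and fibrils, of 18, 4 rose and 0 fell in oxaliplatin (median 0.45), 2 rose and 0 fell in sorafenib (0.41), and 2 were higher between the drugs (0.31). HSPG2, the gene of the basement membrane proteoglycan perlecan, rose from 129, 90.9 and 111 to 274, 212 and 260 CPM in oxaliplatin (1.18 ± 0.20, adjusted p = 0.00384). FREM2, whose product holds epithelia to basement membranes together with that of FRAS1, rose from 18.0, 15.4 and 16.5 to 51.6, 50.2 and 46.1 CPM (1.57 ± 0.16, adjusted p = 0.000822) and was at 14.1, 20.6 and 20.1 in sorafenib. FRAS1 was at 0.411, 0.442 and 0.265 CPM in untreated, 2.57, 3.69 and 1.95 in oxaliplatin (adjusted p = 0.00148) and 1.36, 1.65 and 1.07 in sorafenib (adjusted p = 0.0279, but up to 0.104 without untreated 2 or 3, oxaliplatin 1 or sorafenib 2 or 3). TINAG, a tubular basement membrane protein gene, rose by 0.45 in oxaliplatin and by 0.82 in sorafenib (adjusted p = 0.0467 and 0.0210); the first call held in 6 of 17 alternatives and ended without untreated 2 or 3, oxaliplatin 1 or 2 or any sorafenib library, and the second ended without untreated 2 or 3 or sorafenib 2 or 3 (up to 0.166 and 0.0792).

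**Figure D5:**
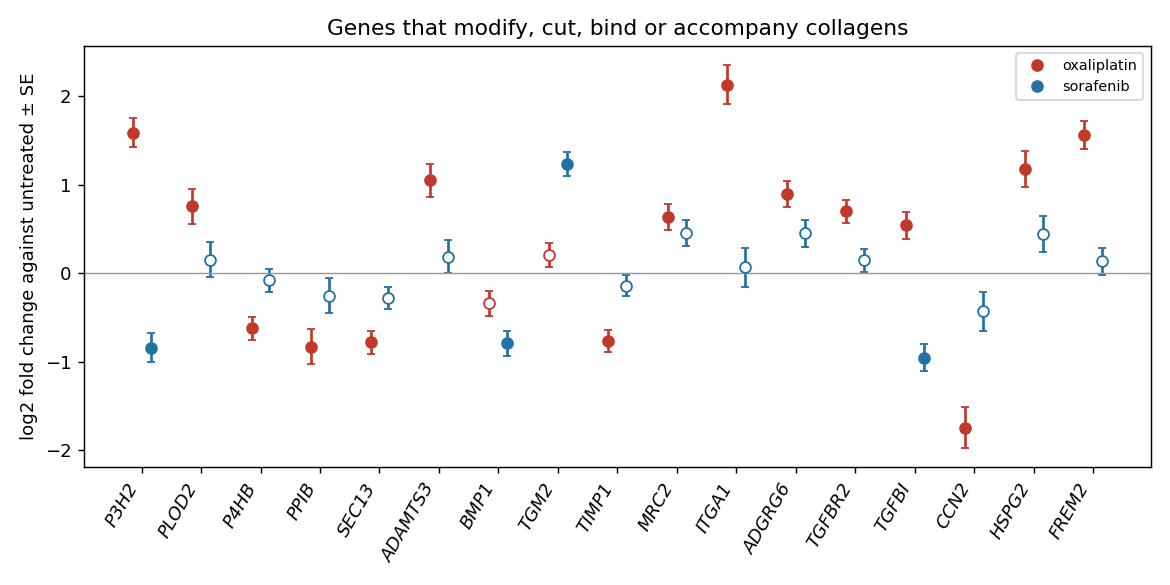
Log2 fold change against untreated with its SE (y axis) of genes that modify, cut, bind or accompany collagens (x axis), in oxaliplatin and sorafenib, filled where the adjusted p is under 0.05. P3H2 and TGFBI lie above 0 in oxaliplatin and below it in sorafenib. Among the genes drawn TGM2 is filled above 0 in sorafenib (ITGB1, TINAG, SMAD3, TGFBR3 and FRAS1, also called higher there, are not drawn).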

How the data were processed

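Raw counts of reads per gene for 60683 genes were deposited for 9 libraries, made with featureCounts against GRCh38, per the submitters' processing notes, which also name DESeq2. The aligner, annotation release, strand setting and tool versions are not given in the sources used here. Groups were taken from the labels. Counts were filtered with edgeR 4.0.16 (filterByExpr) in R 4.3.3, scaled by TMM and fitted with its robust quasi-likelihood model over all 9 libraries. P-values of the 3 comparisons are 2-sided. They were adjusted over the 16159 tested genes (Benjamini-Hochberg), and a gene was called where the result was under 0.05. CPM include the TMM factors. TPM used the longest protein-coding transcript of GENCODE v29 as length, since the count tables hold no length; it was found for 97.4% of genes with a count and for all 44 collagens. A group at 0 was set at 3 counts over the group.

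Gene coordinates are from GENCODE v29 and promoter sequences from RefSeq. Members and gene lists were chosen with earlier results of these data known. All tested members were named; of each list, up to 3 genes per drug with the smallest adjusted p among those called with a mean of at least 5 CPM, and 11 fixed genes. Among 17 alternatives were DESeq2 1.42.0, other scalings and filters, fits of 2 groups, a GC and length correction by loess (span 0.5), and leaving out each library. The procedure was tested on simulated data.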

Additional observations from a re-analysis of the deposited data

How the results depend on the processing

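Of 2033 values recomputed under 17 alternatives, 1702 kept their direction and side of the threshold, or stayed within 1.5 times for counts. Leaving out single libraries gave 3 to 5 collagens higher and 0 to 1 lower in oxaliplatin against untreated, 0 to 1 higher and 1 to 5 lower in sorafenib against untreated, and 5 to 9 higher in oxaliplatin against sorafenib; the 1 lower was COL1A1, without untreated 1. In sorafenib against untreated, 1 collagen (COL5A2) was higher with library size only, with a mean of at least 1 CPM and with DESeq2, and 2 were lower with a mean of at least 1 CPM, which left out COL5A1 and COL20A1, and 2 with only the 2 groups compared. The replicate block left 1 lower (COL20A1). Apart from the filter, the cause was not tested.

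The replicate numbers did not pair the libraries: correlations of same-numbered deviations ran from -0.111 to 0.0359. With the number as a block, 1956 genes were higher and 1817 lower in oxaliplatin against untreated (2619 and 2504 without it), 120 and 64 in sorafenib against untreated (456 and 319), and 441 and 368 between the drugs (840 and 819). Under the block the adjusted p in sorafenib against untreated was 0.0719 for COL1A1, 0.0847 for COL5A1 and 0.08 for COL7A1, and between the drugs 0.0536 for COL1A1 and 0.0752 for COL6A1.

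Some uncalled differences near 0 changed sign. With the correction for GC content and length these were COL7A1 (-0.081) and COL4A2 (-0.015) in oxaliplatin against untreated, COL4A5 (-0.109) and COL27A1 (-0.045) in sorafenib against untreated, and COL18A1 (-0.134) and COL5A2 (-0.153) between the drugs; COL24A1 was at 0.082 in oxaliplatin with library size only. Leaving out single libraries gave ranges of -0.001 to 0.475 for COL4A2 and -0.447 to 0.348 for COL24A1 in oxaliplatin against untreated, -1.05 to 0.18 for COL12A1, -0.15 to 0.32 for COL4A5 and -0.11 to 0.44 for COL27A1 in sorafenib against untreated, and -0.001 to 0.357 for COL6A2, -0.197 to 0.195 for COL18A1 and -0.145 to 0.15 for COL5A2 between the drugs.

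Scaling moved the split of all calls. In oxaliplatin against untreated 51.1% of calls were higher, 65.4% with library size only, which moved the median of all genes from 0.02 to 0.13, and 35.2% with the GC and length correction; between the drugs it was 50.6, 64.2 and 40.4%, and in sorafenib against untreated 58.8, 63.5 and 41.4%. Depth limits the scarce members: COL5A1, COL12A1, COL19A1, COL20A1 and COL24A1 rest on 68 to 129 counts over 9 libraries.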
